A study of Mus musculus with 16 samples.

Results

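The genes described here are 10 genes of the osteoclast, the cell that resorbs bone: Acp5, Ctsk, Mmp9, Calcr, Ocstamp, Dcstamp, Atp6v0d2, Oscar, Tnfrsf11a and Nfatc1. They were followed through the 18 probes, of 45101 on the array, whose only gene symbol is 1 of these names, and are 10 of 18193 genes with such a probe. The arrays measured whole left cochleae of male DBA/2J (DBA) mice, an inbred strain whose hearing declines progressively and which carries hearing-loss alleles of Cdh23 and Fscn2 in all groups. In the M+V group were 6 mice taken at 12 weeks, after 8 weeks of daily subcutaneous L-methionine (MET, 500 mg/kg) with valproic acid (VPA, 300 mg/kg), a methyl donor and a histone deacetylase inhibitor. The control group was 5 mice at 12 weeks after 8 weeks of the sodium bicarbonate vehicle, and the 4 weeks group was 5 untreated mice at the age when treatment began. Each array held 1 cochlea of 1 mouse. The values are deposited signals on the log2 scale, so that a difference of 1 is a doubling, and their median was 6.90 in every array.

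Osteoclasts arise by fusion of precursors of the monocyte lineage. The cytokine RANKL, made by osteoblasts, osteocytes and cartilage cells, binds the receptor RANK on the precursor and switches on the transcription factor NFATc1, which drives the genes for fusion, acid secretion and matrix digestion. The cochlea lies inside a bony capsule, and osteoprotegerin, the decoy receptor for RANKL, is known for keeping the turnover of that bone low. The skull of a mouse still grows at the younger age, and the osteoclast genes bear on whether resorption, and not only bone formation, differs between the ages or with treatment. In whole tissue, fewer osteoclasts and less RNA per osteoclast cannot be told apart.

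Upstream sequence was at hand from RefSeq (build GRCm38.p6) for 5 of the 10 genes, namely Acp5 with 3 start sites, Calcr with 2, and Ctsk, Oscar and Tnfrsf11a with 1 each, which makes 8 promoters. Mmp9, Ocstamp, Dcstamp, Atp6v0d2 and Nfatc1 are named without a sequence. The 250 bases before the start site were searched on both strands for GGAAA or TTTCC (the core bound by NFAT proteins), TGANTCA (AP-1), GAGGAA or TTCCTC (PU.1), CATGTG or CACATG (MITF) and CACGTG (another E-box). The PU.1 letters can overlap the NFAT letters, as in GAGGAAA. Acp5, Ctsk and Oscar are shown because they hold most of the matches, which are in capitals, and stand for the enzymes and the receptors among the genes. The Acp5 stretch lies at chr9:22130599-22130848 on the minus strand, Ctsk at chr3:95498960-95499209 on the plus strand and Oscar at chr7:3616158-3616407 on the minus strand, each written 5′ to 3′.
Acp5: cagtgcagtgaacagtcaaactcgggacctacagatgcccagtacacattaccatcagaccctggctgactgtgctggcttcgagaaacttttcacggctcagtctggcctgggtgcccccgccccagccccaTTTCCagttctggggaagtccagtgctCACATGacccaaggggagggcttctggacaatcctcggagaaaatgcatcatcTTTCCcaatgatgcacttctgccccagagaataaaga
Ctsk: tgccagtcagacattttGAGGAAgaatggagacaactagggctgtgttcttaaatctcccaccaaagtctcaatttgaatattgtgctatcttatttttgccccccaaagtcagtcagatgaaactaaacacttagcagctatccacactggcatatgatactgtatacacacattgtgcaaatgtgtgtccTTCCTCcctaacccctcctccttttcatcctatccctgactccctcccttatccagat
Oscar: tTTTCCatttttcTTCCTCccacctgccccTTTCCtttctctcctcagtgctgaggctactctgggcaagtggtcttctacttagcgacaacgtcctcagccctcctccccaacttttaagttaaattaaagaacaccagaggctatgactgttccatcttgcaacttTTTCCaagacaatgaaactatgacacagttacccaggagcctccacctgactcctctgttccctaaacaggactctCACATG
The Acp5 stretch holds TTTCC at 117 and 37 bases and CACATG at 90 bases before the start site, counted from the first base of each match. The Ctsk stretch holds GAGGAA at 233 and TTCCTC at 58 bases before it. The Oscar stretch holds TTTCC at 249, 220 and 82 bases, TTCCTC at 237 bases and CACATG at 6 bases before it. The NFAT core was found in 5 of the 8 promoters, against 55.6% of the 32851 promoters of the table. PU.1 letters were in 2 of the 8 against 23.3%, MITF letters in 2 of the 8 against 12.3%, AP-1 letters in 0 against 6.75% and CACGTG in 0 against 6.02%. These matches describe the letters only.

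One array stood apart and bears on every value below. On M+V replicate 1, 137 tested probes lay above and 218 below all 15 other arrays by 1 log2 unit or more, against 0 to 22 and 1 to 57 on the others. Erythroid genes averaged -6.62 there relative to the 4 weeks mean, against -0.61 to 0.62 on the other arrays. The arrays also fell into a high and a low level of the bioB hybridisation control, 9.02 to 9.74 on 8 arrays and 5.98 to 6.36 on the other 8. The high level held 2 M+V arrays (replicates 1 and 2), 1 control array and all 5 of the 4 weeks arrays, so this split and age can be told apart only in part. Of the 10 osteoclast genes, Acp5, Ctsk, Mmp9, Dcstamp, Atp6v0d2 and Nfatc1 averaged at or above the array median and were among the 22331 probes tested with limma. Calcr, Ocstamp, Oscar and Tnfrsf11a averaged below it, and their values come from the fit on all 45037 probes.

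The enzymes that digest bone matrix come first. Acp5, tartrate-resistant acid phosphatase, had log2 signals of 14.25, 11.99, 11.44, 12.61, 12.73 and 12.12 in M+V mice, against 12.28, 12.42, 11.86, 12.50 and 11.74 in control mice and 12.05, 12.76, 12.58, 12.46 and 12.29 in 4 weeks mice. The first M+V array was the highest of all 16 and the third was the lowest, while the other 4 lay within the range of the control and 4 weeks arrays. Ctsk, the collagen-cleaving protease cathepsin K, had 14.79, 12.36, 12.18, 12.52, 13.17 and 12.54 in M+V mice, against 12.76, 12.55, 12.18, 12.58 and 11.93 in control mice and 12.42, 13.04, 12.99, 12.92 and 12.61 in 4 weeks mice. M+V replicate 1 was again the highest array and M+V replicate 5 was next. Mmp9, a gelatinase that neutrophils also make, had 13.88, 11.59, 10.85, 12.25, 11.84 and 11.50 in M+V mice, against 11.40, 11.81, 11.35, 11.73 and 11.30 in control mice and 10.93, 11.77, 11.47, 11.49 and 11.07 in 4 weeks mice. The groups overlapped for all 3 enzymes.

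**Figure D1:**
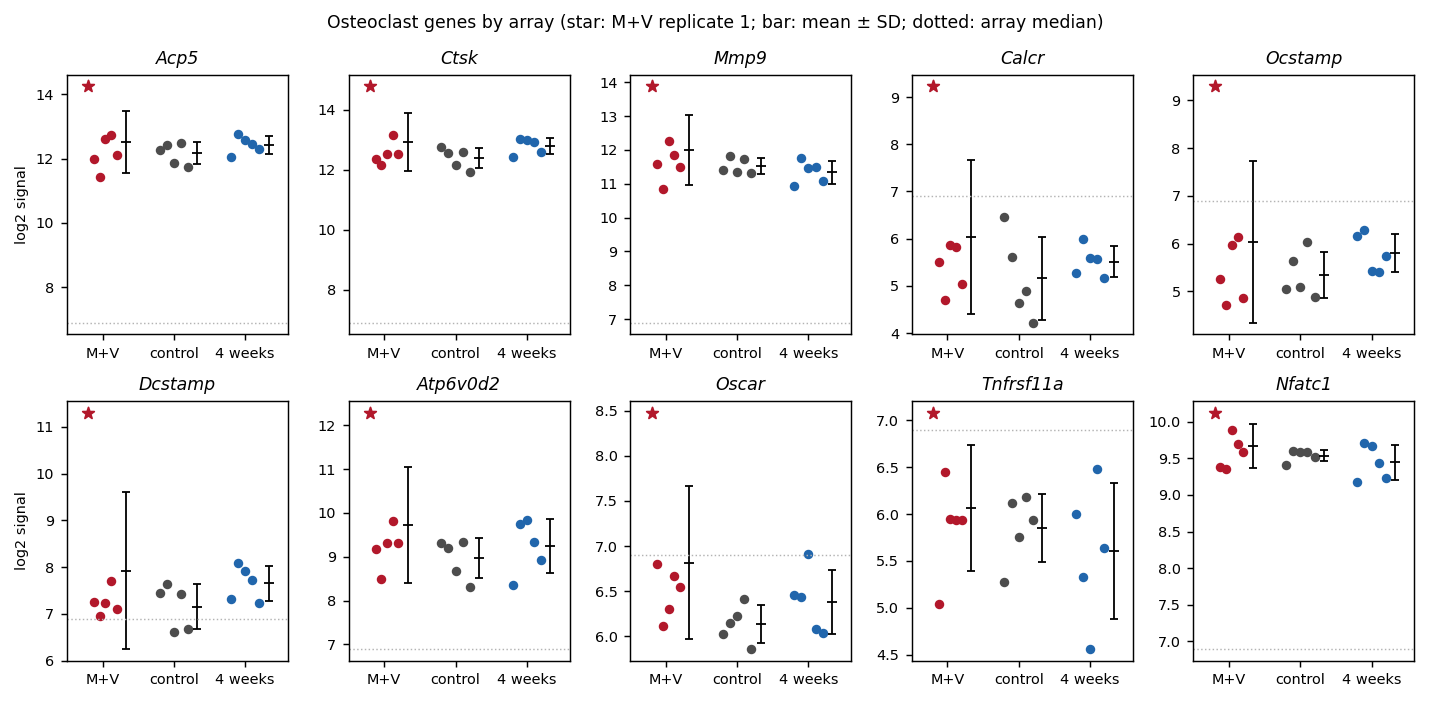
Log2 signal of the brightest probe of each osteoclast gene on every array, in the M+V (n = 6), control (n = 5) and 4 weeks (n = 5) groups; bars are mean ± SD, the star is M+V replicate 1 and the dotted line is the array median of 6.90. M+V replicate 1 is the top point in all 10 panels, and the remaining points of the groups overlap.

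The genes of cell fusion and of the proton pump showed the same array in a more extreme place. Dcstamp, a membrane protein needed for osteoclast fusion, had 11.30, 7.24, 6.95, 7.24, 7.69 and 7.11 in M+V mice, against 7.44, 7.64, 6.61, 7.42 and 6.67 in control mice and 7.31, 8.08, 7.92, 7.72 and 7.24 in 4 weeks mice. All M+V arrays but the first lay below the highest 3 of the 4 weeks arrays. Atp6v0d2, the subunit of the vacuolar proton pump that also takes part in fusion, had 12.29, 9.17, 8.49, 9.32, 9.82 and 9.32 in M+V mice, against 9.31, 9.20, 8.68, 9.34 and 8.30 in control mice and 8.35, 9.76, 9.85, 9.34 and 8.93 in 4 weeks mice. Ocstamp, the partner of Dcstamp in fusion, reached 9.30 on M+V replicate 1, and its other values ran over 4.71 to 6.15 in M+V mice, 4.87 to 6.03 in control mice and 5.41 to 6.29 in 4 weeks mice. Ocstamp thus passed the array median on 1 array of 16.

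The receptors and the transcription factor followed. Calcr, the calcitonin receptor through which calcitonin stops resorption, had 9.23 on M+V replicate 1, then 4.71 to 5.87 on the other M+V arrays, 4.22 to 6.45 in control mice and 5.16 to 5.99 in 4 weeks mice. Oscar, a collagen-binding receptor that costimulates differentiation, had 8.48, 6.80, 6.11, 6.31, 6.66 and 6.54 in M+V mice, against 6.02, 6.15, 6.23, 6.42 and 5.86 in control mice and 6.46, 6.43, 6.92, 6.08 and 6.04 in 4 weeks mice. Tnfrsf11a, which encodes RANK, had 7.08 on M+V replicate 1, 5.04 to 6.45 on the other M+V arrays, 5.28 to 6.18 in control mice and 4.56 to 6.48 in 4 weeks mice. Nfatc1 had 10.12 on M+V replicate 1 and 9.35 to 9.88 on the other M+V arrays. It had 9.41 to 9.60 in control mice and 9.17 to 9.70 in 4 weeks mice. By the brightest probe this was the narrowest spread within each group among the 10 genes. The further Nfatc1 probes had SDs of 0.845, 0.822, 0.923 and 0.711 in M+V mice, against 0.298 for the brightest. The probes other than the brightest, 2 for Mmp9 and Atp6v0d2 and 6 for Oscar, Tnfrsf11a and Nfatc1, were also highest on M+V replicate 1, at 8.52 against at most 6.74 for Oscar, 8.19 against at most 6.25 for Tnfrsf11a, and 10.88 against at most 9.18, 9.26 against at most 7.80, 8.92 against at most 7.21 and 7.86 against at most 6.97 for the 4 further Nfatc1 probes.

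M+V replicate 1 therefore held the highest level of all 10 genes. By the brightest probe, 8 of the 10 exceeded the next array by 1 log2 unit or more, while Tnfrsf11a exceeded it by 0.60 and Nfatc1 by 0.24. The other probes of these genes set them apart more, by 1.94 for Tnfrsf11a and by 1.70, 1.46, 1.72 and 0.89 for Nfatc1. Over all probes, 15.1% were highest on this array and 0.824% were highest by 1 unit or more. Against the median of the other 15 arrays the level of the brightest probe was 15.9-fold for Dcstamp, 7.86-fold for Atp6v0d2, 5.24-fold for Mmp9, 4.72-fold for Ctsk, 3.87-fold for Acp5 and 1.46-fold for Nfatc1, for which 2 further probes gave 4.19-fold and 4.06-fold. No fold is given for Calcr, Ocstamp, Oscar and Tnfrsf11a, whose median on the other arrays (5.50, 5.43, 6.31 and 5.94) lay below the array median, where a signal above background was not shown. These are values of 1 mouse and carry no test.

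The first comparison asked whether treatment altered the resorption genes at a fixed age. None of the 6 tested genes passed the test between M+V and control mice, and 0 of the 22331 probes passed the test (0% by limma with Benjamini-Hochberg adjustment, lowest adjusted p 0.372), while 2097 had an unadjusted p under 0.05. Ctsk averaged 12.93 ± 0.97 in M+V mice (SD, n = 6) and 12.40 ± 0.34 in control mice (SD, n = 5), a difference of 0.53 with a 95% interval of -0.22 to 1.28 and an adjusted p of 0.658. Acp5 averaged 12.52 ± 0.96 in M+V mice and 12.16 ± 0.34 in control mice, a difference of 0.36 (-0.38 to 1.11). Mmp9 differed by 0.47 (-0.32 to 1.25) and Nfatc1 by 0.13 (-0.16 to 0.42). Dcstamp averaged 7.92 ± 1.67 in M+V mice and 7.15 ± 0.48 in control mice, a difference of 0.77 (-0.48 to 2.02). Atp6v0d2 differed by 0.77 (-0.29 to 1.83).

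Of the genes below the array median, Oscar averaged 6.82 ± 0.85 in M+V mice and 6.14 ± 0.21 in control mice, a difference of 0.68 with an interval of -0.03 to 1.40 and an adjusted p of 0.699. Calcr differed by 0.86 (-0.53 to 2.26), Ocstamp by 0.70 (-0.66 to 2.07) and Tnfrsf11a by 0.21 (-0.55 to 0.97). The second Tnfrsf11a probe differed by 0.95 (0.006 to 1.90), with an unadjusted limma p of 0.0488 and an adjusted p of 0.686, and by 0.56 without M+V replicate 1. All 10 differences were above 0, where 52.8% of all probes of 1 gene were. Their median was 0.60, against 0.02 over all probes of 1 gene. The 6 tested genes varied together within a group, so the 10 signs are not separate results. Without M+V replicate 1 all 10 were still above 0, from 0.007 for Tnfrsf11a to 0.35 for Oscar, while a further Nfatc1 probe was at -0.07. The median without that array was 0.09, against 0.02 over all probes of 1 gene. The intervals then narrowed to -0.25 to 0.56 for Ctsk, -0.46 to 0.50 for Acp5, -0.38 to 0.56 for Dcstamp, -0.22 to 0.30 for Nfatc1 and -0.04 to 0.74 for Oscar. Within the 8 arrays of the low bioB level, 4 M+V and 4 control, the median was 0.13 and the single differences ran from 0.02 for Ocstamp to 0.52 for Calcr. Within the high level, which holds M+V replicates 1 and 2 and 1 control array, the median was 1.12.

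**Figure D2:**
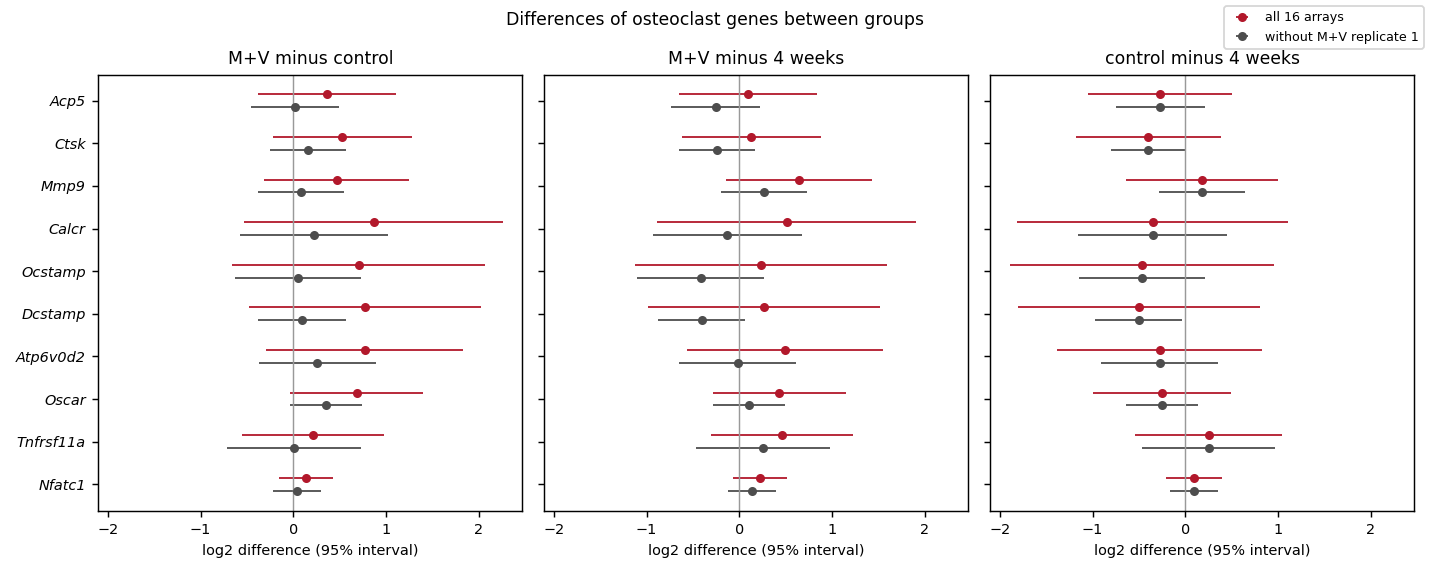
Log2 differences of the 10 osteoclast genes with 95% intervals from limma for M+V minus control, M+V minus 4 weeks and control minus 4 weeks; red points use all 16 arrays and grey points leave out M+V replicate 1. The median over the genes is 0.60, 0.35 and -0.27 with all arrays, and 0.09, -0.07 and -0.27 without that array.

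The second comparison set treated mice at 12 weeks against untreated mice at 4 weeks, so age and treatment both differ. None of the 6 tested genes passed the test, against 4.71% of all tested probes. Mmp9 had the lowest adjusted p among them, with 11.99 ± 1.03 in M+V mice and 11.34 ± 0.34 in 4 weeks mice, a difference of 0.64 (-0.14 to 1.43, adjusted p = 0.333). Ctsk averaged 12.93 ± 0.97 in M+V mice and 12.80 ± 0.27 in 4 weeks mice, a difference of 0.13 (-0.62 to 0.88), and Acp5 differed by 0.09 (-0.65 to 0.84). The median of the 10 differences was 0.35 and all 10 were above 0, where 51.3% of all probes of 1 gene were. Without M+V replicate 1 the median was -0.07 and 4 of the 10 were above 0. The 6 that turned were Acp5 (-0.25), Ctsk (-0.24), Calcr (-0.13), Ocstamp (-0.42), Dcstamp (-0.41) and Atp6v0d2 (-0.02). The direction of this comparison thus rested on 1 array for those 6 genes. Within the high bioB level, where 2 M+V arrays including replicate 1 met all 5 of the 4 weeks arrays, the median was 1.32, and with the level as a block and replicate 1 left out it was -0.09. Second probes differed from the first for Oscar, at -0.10 against 0.43, and for Tnfrsf11a, at 1.06 (0.11 to 2.01, adjusted p = 0.30) against 0.46.

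The third comparison, control against 4 weeks, contained no M+V array. Age and vehicle injection both differed between its groups and cannot be told apart. None of the 6 tested genes passed the test, against 1.18% of all tested probes. Dcstamp averaged 7.15 ± 0.48 in control mice and 7.65 ± 0.37 in 4 weeks mice, a difference of -0.50 (-1.81 to 0.80, adjusted p = 0.791), and Ctsk averaged 12.40 ± 0.34 in control mice and 12.80 ± 0.27 in 4 weeks mice, a difference of -0.40 (-1.18 to 0.38, adjusted p = 0.707). Acp5 differed by -0.27, Atp6v0d2 by -0.27, Mmp9 by 0.18 and Nfatc1 by 0.09. The median of the 10 genes was -0.27, against -0.004 over all probes of 1 gene. Of the 10, 3 genes (Mmp9, Tnfrsf11a and Nfatc1) were above 0, where 49.4% of all probes of 1 gene were. M+V replicate 1 entered this comparison only through the shared spread. Without it 0 of the 6 genes passed, against 2.25% of all tested probes, and the interval of Dcstamp was -0.97 to -0.03 with an adjusted p of 0.281, that of Ctsk -0.81 to 0.01 and that of Acp5 -0.75 to 0.21. With the bioB level as a block the median was 0.34, within the high level (1 control array) it was -0.09, and with the block but without M+V replicate 1 it was -0.23, so its sign depended on how that split and that array were handled. None of the 6 genes passed the test under these settings. In no comparison did the groups of any of the 10 genes fail to overlap, where 0.881% of all probes did in M+V against control, 2.73% in M+V against 4 weeks and 3.34% in control against 4 weeks.

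Genes of bone formation were lower at 12 weeks. Of 12 tested genes of osteoblasts and osteocytes, 10 were lower in M+V mice than in 4 weeks mice and 6 were lower in control mice than in 4 weeks mice, with medians of -1.09 and -0.92, and 0 passed between M+V and control. Over all tested probes, 2.85% were lower and 1.86% higher in M+V than in 4 weeks mice, and 0.873% were lower and 0.309% higher in control than in 4 weeks mice. Alpl, the alkaline phosphatase of mineralising matrix, averaged 8.74 ± 0.42 in M+V mice, 8.87 ± 0.08 in control mice and 9.96 ± 0.20 in 4 weeks mice. It was lower by limma in M+V than in 4 weeks mice (-1.23, adjusted p = 0.0007) and in control than in 4 weeks mice (-1.10, adjusted p = 0.0041). Col1a1, the main collagen chain of bone, averaged 10.51 ± 0.52 in M+V mice, 10.91 ± 0.25 in control mice and 11.99 ± 0.21 in 4 weeks mice. Without M+V replicate 1 the count was 10 in M+V relative to 4 weeks, where 3.95% of all tested probes were lower and 2.42% higher, and 9 in control relative to 4 weeks, where 1.61% were lower and 0.640% higher. The count in control against 4 weeks was 2 without control replicate 4 or control replicate 5, and 3 without 4 weeks replicate 4 or 4 weeks replicate 5. With the bioB level as a block the counts were 11 for M+V and 4 for control relative to 4 weeks.

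Of 7 tested growth cartilage genes, Col2a1, Col9a1 and Panx3 were lower both in M+V than in 4 weeks mice (2.85% of all tested probes) and in control than in 4 weeks mice (0.873%). Col2a1, the collagen of cartilage, averaged 9.45 ± 1.11 in M+V mice, 9.70 ± 0.39 in control mice and 12.01 ± 0.15 in 4 weeks mice, and Panx3, a channel of maturing cartilage and bone cells, averaged 7.67 ± 0.81 in M+V mice, 7.64 ± 0.48 in control mice and 9.87 ± 0.11 in 4 weeks mice. Comp, a cartilage matrix protein, averaged 7.90 ± 0.97 in M+V mice, 8.66 ± 0.20 in control mice and 7.25 ± 0.30 in 4 weeks mice. Its M+V minus 4 weeks difference was 0.65 (adjusted p = 0.290), or 1.04 without M+V replicate 1 (adjusted p = 0.00068), and its control minus 4 weeks difference was 1.41 (adjusted p = 0.071, or 7.4e-05 without that array). The osteoclast genes lay at a median of 0.35 in M+V mice (-0.07 without M+V replicate 1) and -0.27 in control mice relative to 4 weeks mice. Whether the shifts of the bone-forming and the resorbing genes differ was not tested.

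**Figure D3:**
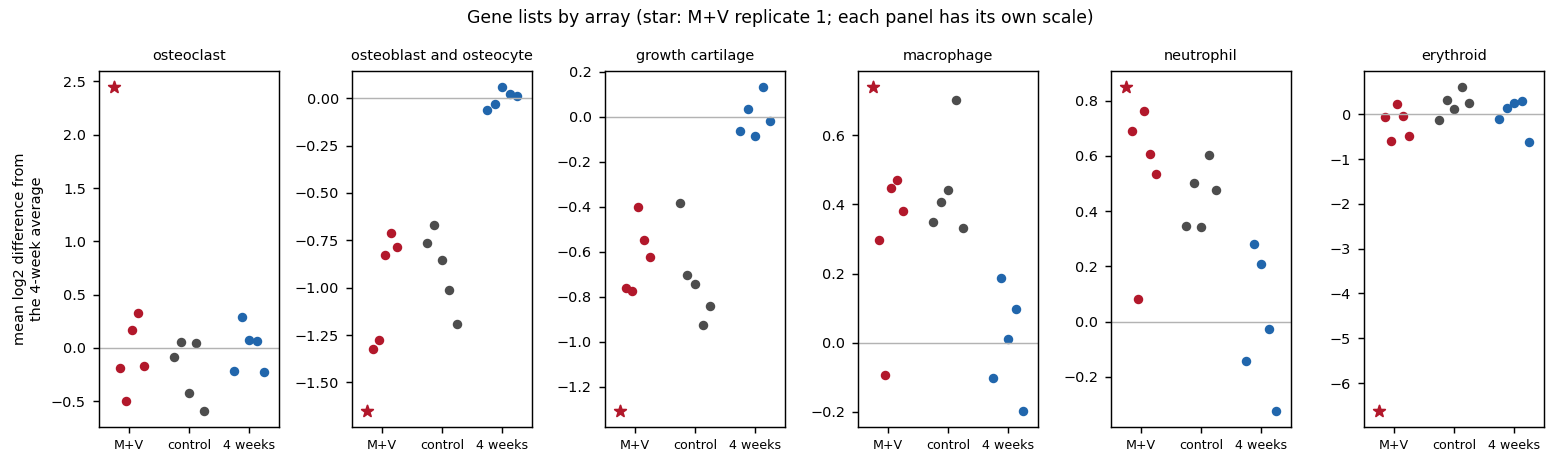
Mean log2 level over the genes of 6 lists on every array, relative to the average of the 4 weeks arrays, for M+V (n = 6), control (n = 5) and 4 weeks (n = 5); each panel has its own scale and the star is M+V replicate 1. The bone-forming and cartilage lists lie below 0 on all 11 arrays at 12 weeks, while the osteoclast list lies within -0.59 to 0.33 on all arrays but M+V replicate 1 (2.45).

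The signals and receptors upstream of these genes were listed by role. Among the ligands and the decoy receptor, Il34, an alternative ligand of the CSF1 receptor, averaged 8.00 ± 0.17 in M+V mice, 8.00 ± 0.19 in control mice and 7.52 ± 0.17 in 4 weeks mice. It was higher in M+V than in 4 weeks mice (0.48, adjusted p = 0.0225) and did not pass in control against 4 weeks (0.48, adjusted p = 0.0543; 0.0242 without M+V replicate 1). Tnfsf11, which encodes RANKL, averaged 6.71 ± 0.99 in M+V mice, 6.36 ± 0.46 in control mice and 7.12 ± 0.17 in 4 weeks mice. Over all probes its M+V minus 4 weeks difference was -0.41 (adjusted p = 0.678), or -0.80 without M+V replicate 1 (adjusted p = 0.0831), and its control minus 4 weeks difference was -0.76 (adjusted p = 0.596). Tnfrsf11b, which encodes osteoprotegerin, averaged 10.58 ± 0.51 in M+V mice, 10.53 ± 0.42 in control mice and 10.84 ± 0.65 in 4 weeks mice.

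Of 6 tested signalling receptors and adaptors, 9 transcription factors and 5 inhibitors of differentiation, 0 passed the test in any comparison. Tfec, a relative of MITF, differed by 0.96 in M+V relative to 4 weeks mice (adjusted p = 0.0699), Spi1, which encodes PU.1, by 0.65 (adjusted p = 0.111), and Plcg2, a phospholipase of the costimulatory pathway, by 0.44 (adjusted p = 0.0802). Of 12 genes of acid secretion and trafficking, Slc4a2, the chloride and bicarbonate exchanger of the osteoclast membrane, was higher in M+V than in 4 weeks mice, with 9.59 ± 0.24 in M+V mice, 9.26 ± 0.21 in control mice and 9.02 ± 0.10 in 4 weeks mice (0.57, adjusted p = 0.0137). Of 8 genes of adhesion and the cytoskeleton, Sh3pxd2a, a scaffold of podosomes, was lower in M+V than in 4 weeks mice (-0.65, adjusted p = 0.0327). These are 1 of 12 and 1 of 8, in a comparison where 4.71% of all tested probes passed. All of these genes are also expressed outside osteoclasts. None of these lists had a gene past the test in M+V against control.

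Many other genes that osteoclasts use, and genes that inhibit their differentiation, were also high on M+V replicate 1. Of the 12 acid secretion genes, 11 were highest there, among them Snx10, a sorting protein needed for bone resorption (13.02 against at most 11.04 on the other arrays), and Tcirg1, the pump subunit typical of osteoclasts (10.66 against at most 9.60). The exception was Car2, carbonic anhydrase II, which was lowest of all arrays at 13.40 against at least 14.48. Car2 is also abundant in red cell precursors and in other cochlear cells. Of the 9 transcription factors 6 were highest, among them Prdm1 (9.48 against at most 7.47), Jdp2 (12.05 against at most 10.76), Fosl2 (11.76 against at most 10.65) and Fos (11.64 against at most 10.87). Relb, Mitf and Nfkb2 were not, and ranked 2, 5 and 10 of 16. Of the 7 receptors and adaptors 4 were highest, of the 8 adhesion genes 5 and of the 4 ligands and decoy receptor 2, while Syk, Plcg2, Traf6, Ckb, Gsn, Csf1 and Tnfrsf11b were not, and Sh3pxd2a ranked 15 of 16. Among the highest were Csf1r, the receptor for the survival factor of the lineage (13.95 against at most 13.27), Trem2 (7.98 against at most 6.54), Itgb3, the integrin chain of the sealing zone (10.16 against at most 9.35), and Tnfsf11 (8.65 against at most 7.34). Of the 5 inhibitors of differentiation 4 were also highest, 0 of them by 1 log2 unit or more, and Irf8 ranked 10 of 16. For comparison, 15.1% of all probes were highest on this array.

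Most genes of bone formation and of red cell precursors were low on the same array. Of 12 osteoblast and osteocyte genes, 8 were lowest there and 0 highest, where 12.7% of all probes were lowest on this array and 1.72% by 1 unit or more. Among the 8 were Phex, a peptidase of osteocytes (9.92 against at least 11.50), and Ifitm5 (6.47 against at least 8.03). Ibsp, Dmp1, Postn and Mepe were not lowest. Ibsp, at 13.63, lay above the median of the other arrays (12.95) and the mean of the other M+V arrays (12.51). Dmp1 (13.56), Postn (10.35) and Mepe (10.90) lay below their medians on the other arrays (13.76, 10.67 and 11.45). Mmp13, a collagenase of maturing cartilage and osteoblasts, was an exception among 10 cartilage genes, at 14.48 against at most 13.07, while 4 of the 10 were lowest. Of 5 genes of red cell precursors, 4 were lowest, with Klf1 at 2.88 against at least 11.20, Slc4a1 at 5.22 against at least 12.45, Alas2 at 4.02 against at least 11.22 and Epb42 at 3.48 against at least 8.67. Of the other lists, 4 of 12 macrophage genes were highest, led by Cd68 (11.87 against at most 10.13), while Adgre1 (9.61) and Mrc1 (10.61) lay within the range of the others. Of 11 neutrophil genes 5 were highest, 0 of them by 1 log2 unit or more. The 8 brain genes had a mean of -1.10 relative to the 4 weeks average, near that of M+V replicate 2 (-1.04) and M+V replicate 5 (-0.89), and the 11 cochlear genes had a median of -0.41 relative to the other arrays. Of the 11 cochlear genes 4 were lowest on this array and 1 was highest. The lowest were Kcne1 (7.60 against at least 9.28), Otos (13.82 against at least 14.48), Gjb2 (11.82 against at least 12.25) and Coch (14.84 against at least 14.87). The part of cell composition or of handling in the osteoclast levels of this array was not tested.

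**Figure D4:**
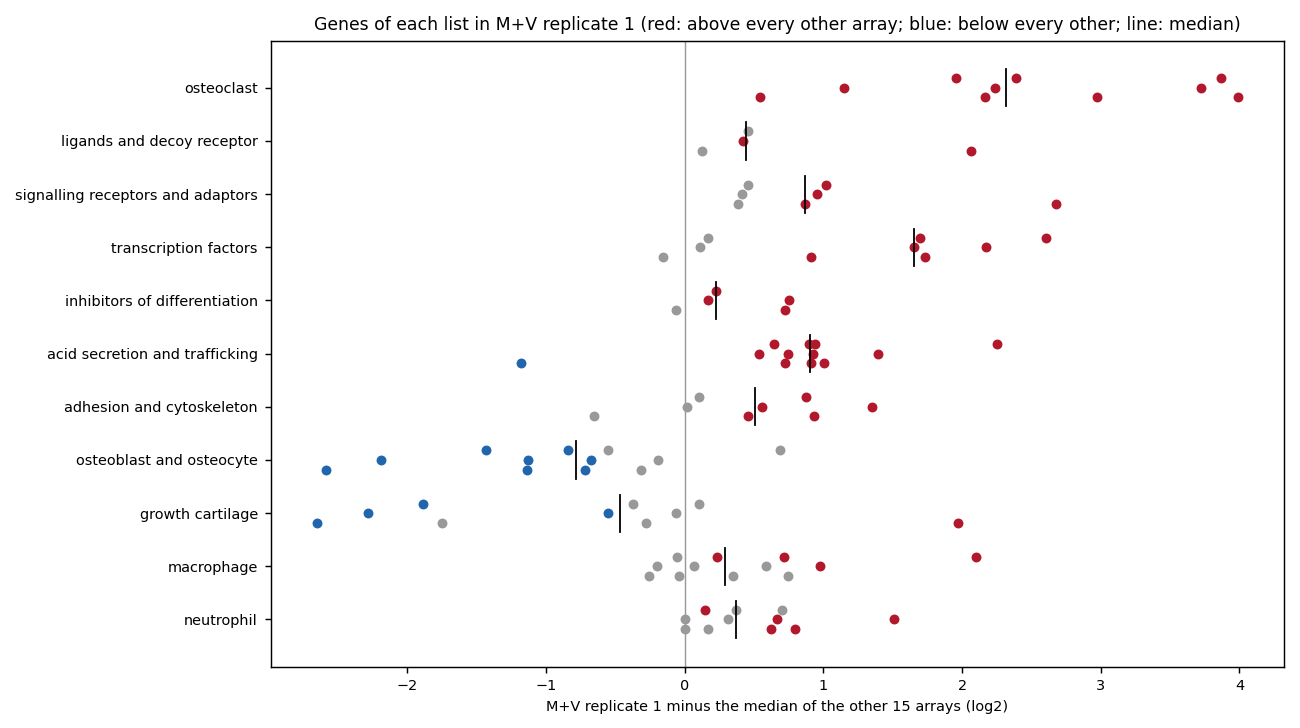
Level of each gene on M+V replicate 1 minus its median on the other 15 arrays (log2), for 11 lists; red marks genes above every other array, blue those below every other array, and the black line is the list's median. All 10 osteoclast genes are red with a median of 2.31, against -0.78 for the bone-forming genes, of which 8 are blue; the erythroid genes (median -7.90) are off this scale and not drawn.

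Genes of neutrophils, which also make Mmp9, were set beside it. Of 11 tested, Prtn3, Elane, Mpo and Ctsg, all proteins of the primary granules, were higher in M+V than in 4 weeks mice, where 1.86% of all tested probes were higher, and Prtn3 alone was higher in control than in 4 weeks mice, where 0.309% were. Prtn3 averaged 13.02 ± 0.28 in M+V mice, 12.77 ± 0.25 in control mice and 11.74 ± 0.35 in 4 weeks mice. The mean of the list relative to 4 weeks was 0.08 to 0.85 on M+V arrays, 0.34 to 0.60 on control arrays and -0.32 to 0.28 on 4 weeks arrays, and its part in the Mmp9 values was not tested. Of 12 macrophage genes, Cd5l was higher in both, with 8.94 ± 0.48 in M+V mice, 9.42 ± 0.34 in control mice and 6.68 ± 0.56 in 4 weeks mice. Its 4 weeks mean lay below the array median, so it passed the filter through the 12-week arrays.

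Within a group, the 6 tested osteoclast genes varied together. Over the 15 arrays without M+V replicate 1 and after removal of the group means, all 15 pairs of the 6 tested genes correlated above 0, with a median Pearson r of 0.81 (0.51 to 0.92). With all 10 genes, 37 of 45 pairs were above 0 and the median was 0.51 (-0.62 to 0.92). All 8 pairs below 0 held Tnfrsf11a, whose r was -0.19 with Acp5, -0.21 with Ctsk and -0.62 with Oscar and was above 0 only with Ocstamp (0.084). Only the brightest Tnfrsf11a probe was used, whose median of 5.94 outside M+V replicate 1 lay below the array median. A signal above background was not shown there, and the second Tnfrsf11a probe was not correlated. The r values of all pairs share arrays, dissection and normalisation. Pairs of other tested genes were not set beside them, so whether such an r is particular to these genes was not tested. Without M+V replicate 1, the mean over the 10 genes relative to the 4 weeks average ran from -0.50 to 0.33 on the M+V arrays, from -0.59 to 0.05 on the control arrays and from -0.23 to 0.29 on the 4 weeks arrays.

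Of 11784 other genes ranked by their correlation with the mean standardized profile of the 6 tested osteoclast genes over 16 arrays, the 8 most alike were Slc9b2, Slc37a2, Chil3, Ifi30, Btnl9, Prkch, Cd68 and Snx10, with r of 0.928 to 0.965. Slc9b2, a sodium and proton exchanger, had an r of 0.965 and a Spearman rho of 0.909, and Slc37a2, a sugar phosphate transporter, had an r of 0.956 and a rho of 0.853. Without M+V replicate 1 r was 0.852 for Slc9b2, 0.839 for Slc37a2, 0.820 for Btnl9 and 0.813 for Chil3. Without the arrays farthest from the median of the profile, M+V replicates 1 and 3, r was 0.871 for Slc9b2 and 0.808 for Slc37a2. Over the 15 arrays Slc9b2 ranked 4 and Slc37a2 ranked 6 of the 11784, while Cd68 ranked 212 and Snx10 ranked 281. Slc9b2 had 12.05 on M+V replicate 1 against 7.87 to 9.24 on the other 15 arrays. The arrays share 1 normalisation, so these correlations describe the arrays and carry no p.

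**Figure D5:**
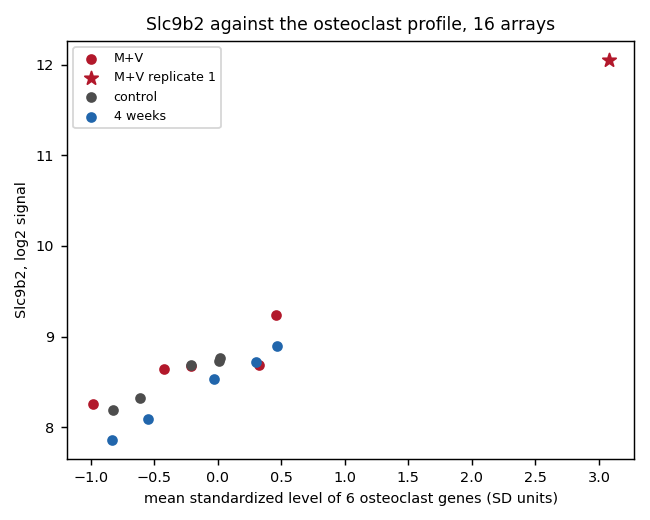
Log2 signal of Slc9b2 against the mean standardized level of the 6 tested osteoclast genes (SD units) on the M+V (n = 6), control (n = 5) and 4 weeks (n = 5) arrays. The star is M+V replicate 1 (12.05). The other 15 arrays run upward together, with r of 0.852 when the profile is standardized without that array.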

How the data were processed

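RNA of whole left cochleae was measured on an Affymetrix mouse genome array in 6 M+V, 5 control and 5 4 weeks mice. Signals were derived by the authors in GCOS using MAS5 (versions not given in the sources used here) and then quantile-normalised, and the deposited values are on the log2 scale. Sorted values were identical in all 16 arrays, which fixes every array's distribution. Arrays carry no read depth, and their number limits the precision. Values below a signal of 1 (0.87%) were set to it. Of 45037 non-control probes, 22331 with a mean over all arrays at or above the array median were tested with limma 3.58.1 (R 4.3.3; lmFit, eBayes, 1 mean per group, two-sided, Benjamini-Hochberg adjusted p under 0.05). The filter ignores group labels, but a gene can still pass it through the groups where it was high, as Cd5l did. A gene was read by its brightest probe, and genes under the filter were fitted over all 45037 probes. Probe symbols came from the array annotation: 34958 probes had 1 symbol, 932 several and 9211 none, and those without exactly 1 were not named. Of the 34958, 34754 matched RefSeq gene identifiers. The fit was tested on simulated data, with independent normal values and changed probes shifted equally on every M+V array. Those data held no outlying array and no bioB split, so the test does not bear on either.

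Named by rule were all 10 members, from each other list up to 4 genes with the largest absolute moderated t in either M+V comparison, and the 8 genes most like the osteoclast profile. Comp, Tcirg1, Prdm1, Jdp2, Fos, Csf1r, Trem2, Phex, Ifitm5, Mmp13, Klf1, Car2 and Adgre1 were named after their values were seen. The same holds for Kcne1, Otos, Gjb2, Ibsp, Dmp1, Postn, Mepe, Relb, Mitf, Nfkb2 and Irf8 in the description of M+V replicate 1. The members and lists were chosen with earlier results of these data known. Alternatives were other filters, offset, normalisation, spread, array weights, the methods' t-test, the probe rule, the groups in the fit, bioB level, replicate number as a block, and each array left out. Each array is a separate mouse, so p-values measure the spread between mice, with dissection and hybridisation included. No label states that replicate numbers pair the samples, and the main fit did not pair them. Of 15 same-numbered pairs, 6 had a correlation of deviations over 0.1, which does not exclude shared handling.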

Additional observations from a re-analysis of the deposited data

Results flagged for a closer look

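Single arrays were far from the rest of their group in 10 cases, where chance alone gives about 1 in 20 groups if these are separate. They are not separate here, as M+V replicate 1 gave all 5 cases for single genes and 4 of the 5 for lists. The osteoclast list is also the mean of the same 10 genes. M+V replicate 1 was far above the other M+V arrays for Calcr (9.23), Ocstamp (9.30), Dcstamp (11.3), Atp6v0d2 (12.29) and Oscar (8.48), which are 5 of the 30 groups looked at for the 10 osteoclast genes. For the mean of a gene list relative to the 4 weeks average, the same array was far above its group for the osteoclast genes (2.45), the transcription factors (1.29) and acid secretion and trafficking (0.868), and far below it for the erythroid genes (-6.62). Control replicate 2 was above the other control arrays for the transcription factors (0.269). These are 5 of the 42 groups looked at for the lists.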

How the results depend on the processing

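Of 940 values of single osteoclast genes under the alternatives, 908 kept their direction and 32 changed it, and 0 passed the test under any of them (lowest adjusted p 0.139). M+V minus control kept its direction for all 10 genes under every alternative, and 0 genes passed the test. Leaving out 1 array gave a median over the genes of 0.09 to 0.76 in M+V minus control, -0.07 to 0.48 in M+V minus 4 weeks and -0.38 to -0.14 in control minus 4 weeks. The lowest of the first and second came without M+V replicate 1. With the high bioB arrays only, the median of M+V minus 4 weeks was 1.32. The bioB level as a block gave 0.50 for M+V minus control, 0.91 for M+V minus 4 weeks and 0.34 for control minus 4 weeks. The same block without M+V replicate 1, chosen after seeing the data, gave 0.09, -0.09 and -0.23.

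In M+V minus 4 weeks, array weights turned Acp5 (-0.042), Ctsk (-0.045), Ocstamp (-0.11) and Dcstamp (-0.23), and M+V replicate 1 had the lowest weight (0.246). The bioB block without that array turned Acp5 (-0.29), Ctsk (-0.16), Ocstamp (-0.63), Dcstamp (-0.27), Tnfrsf11a (-0.44) and Nfatc1 (-0.027). In control minus 4 weeks, the bioB block turned Acp5 (0.22), Ctsk (0.22), Calcr (1.14), Ocstamp (0.35), Dcstamp (0.62), Atp6v0d2 (0.60) and Oscar (0.32). The high bioB arrays only turned Calcr (0.94), Atp6v0d2 (0.071), Tnfrsf11a (-0.33) and Nfatc1 (-0.034), and the block without M+V replicate 1 turned Calcr (0.35), Tnfrsf11a (-0.45) and Nfatc1 (-0.068). Single arrays left out gave Acp5 -0.25 to 0.31, Ctsk -0.24 to 0.28, Calcr -0.13 to 0.77, Ocstamp -0.42 to 0.50, Dcstamp -0.41 to 0.46 and Atp6v0d2 -0.018 to 0.74 in M+V minus 4 weeks, and Tnfrsf11a -0.0091 to 0.47 in control minus 4 weeks. The cause was not tested.

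Counts over all probes moved further. In M+V minus 4 weeks (1052 probes) they were 317 with no filter and 668 at the 25th percentile (more probes tested), 235 by the methods' t-test, 466 with only the groups compared, 2370 with array weights, 459 with the mean of all probes of a gene, 511 with the bioB block without M+V replicate 1, and 490 (without 4 weeks replicate 4) to 1679 (without M+V replicate 3) with 1 array left out. In control minus 4 weeks (264 probes) they were 95, 167, 543 with only the groups compared, 897 with array weights, 135 with the bioB block, 16 with the high bioB arrays only, 128 with the mean of probes, and 117 (without control replicate 5) to 503 (without M+V replicate 1). M+V minus control gave 17 with the high bioB arrays, which hold 1 control. With replicate number as a block the counts were 577 and 145, the medians of the osteoclast genes 0.67, 0.48 and -0.27, and 0 of these genes passed. Over 15 same-numbered pairs the median correlation was 0.0155, against -0.0107 for other pairs. This does not settle whether same-numbered arrays shared handling. The arrays numbered 1 were all at the high bioB level (9.28 for 4 weeks, 9.20 for control and 9.74 for M+V). The bone-forming count in control minus 4 weeks (6) was 2 with no filter, 2 with the replicate block, 11 with array weights and 0 with the high bioB arrays, and in M+V minus 4 weeks (10) it was 3 by the methods' t-test, where 0 cartilage genes passed.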
